A study of Drosophila melanogaster with 6 samples.

Results

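The genes described here encode receptors through which neurons of the fly brain sense GABA, the main inhibitory transmitter, and glutamate at central synapses. They were taken by name from the deposited table and comprise 3 subunits of GABA-gated channels (Rdl, Lcch3 and Grd), 3 GABA-B receptors (GABA-B-R1, GABA-B-R2 and GABA-B-R3), the glutamate-gated chloride channel GluClalpha, both NMDA receptor subunits (Nmdar1 and Nmdar2) and the metabotropic glutamate receptor mGluR. These 10 genes, of 17137 gene names in the table, held 43 of its 36294 transcripts. Poly-A RNA was sequenced from brains of third-instar Canton-S larvae, a wild-type laboratory strain of Drosophila melanogaster, collected 6 days after egg-laying. The 3 alcohol pools came from larvae raised on food with 5% alcohol that was topped up daily, and the 3 control pools from larvae raised on food made with water and not topped up. Each pool held about 30 brains, all larvae were frozen before dissection, and no source says whether the pools of a group came from separate bottles, so the p-values measure the spread between these pools.

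GABA acts in insects through fast chloride channels, of which Rdl is the best known subunit and the target of the insecticide dieldrin, and through slower G protein-coupled GABA-B receptors. Acetylcholine, not glutamate, carries most fast excitation in the fly brain. Central glutamate can inhibit neurons through GluClalpha, the target of ivermectin, or act through NMDA receptors, which take part in learning, and through mGluR, which couples to G proteins. The question here was how these receptors were expressed in the larval brain and whether rearing on alcohol changed their RNA or the isoforms that carry it.

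Expression was read as FPKM, which corrects fragments for the length of a transcript and the size of a library. A gene's level is the sum over its transcripts, so levels can be compared between genes. The pools held 2719 to 4028 aligned megabases in the alcohol group and 3257 to 4244 megabases in the control group, by the ratio of coverage to FPKM. Neuron markers (elav, nSyb, brp, Syt1, para, Syn and futsch) summed to 320, 438 and 271 FPKM in alcohol pools 1, 2 and 3, and 249, 296 and 406 FPKM in control pools 1, 2 and 3. All 7 were present in every pool. The pools also held RNA of tissues that adjoin the brain in the larva. Salivary gland markers summed to 29985 to 45633 FPKM in the alcohol pools and 14140 to 55966 FPKM in the control pools, fat body markers to 669 to 3947 and 2123 to 6448 FPKM, and muscle markers to 102 to 380 and 61.9 to 471 FPKM, in the same order. With the test of all genes used for the receptors 3 of 6 muscle markers and 6 of 9 salivary gland markers were called higher in the alcohol pools. The count was 0 of 7 neuron, 0 of 4 glia, 0 of 6 fat body and 0 of 4 hemocyte markers, and 1.18% of all 8247 genes were called higher. Groups did not overlap only for 3 salivary gland markers (ng1, ng2 and ng3), Mef2 of the muscle list and Fbp1 of fat body, where 6.21% of the genes tested did not. Mef2 varied little over the pools, at 8.58 to 10.9 FPKM, unlike the other muscle markers, such as Mhc at 1.74 to 24.4 FPKM. That test holds a library-size covariate, and treatment explained 40.3% of its variance. The part of the covariate in these calls was not tested. In bulk RNA, fewer cells of a type and less RNA per cell cannot be told apart, and the part of these tissues in the receptor values was not tested.

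The receptors spanned a wide range of expression, with 3 steps between neighbours that exceeded their spread. Lcch3 was the highest at 37.3 ± 8.78 FPKM (SD over the 6 pools), followed by GABA-B-R2 at 31.0 ± 8.32 and GluClalpha at 29.9 ± 9.81 FPKM. These 3 did not differ beyond their spread, although Lcch3 lay above GABA-B-R2 in 6 of 6 pools. Rdl followed at 16.5 ± 4.87 FPKM, and GluClalpha exceeded it 1.67- to 1.97-fold in every pool. Next came mGluR at 12.1 ± 4.63, Nmdar2 at 12.0 ± 2.65 and Nmdar1 at 8.77 ± 2.07 FPKM. Among these the step from Nmdar2 to Nmdar1 exceeded the SD of either gene, and the steps from Rdl to mGluR and from mGluR to Nmdar2 did not. GABA-B-R1 at 7.74 ± 2.22 and GABA-B-R3 at 7.12 ± 1.69 FPKM did not differ from each other or from Nmdar1 beyond their spread. Compared within each pool, Rdl lay above mGluR (1.21- to 1.65-fold) and Nmdar1 above GABA-B-R1 (1.04- to 1.24-fold) in 6 of 6 pools. GABA-B-R1 lay above GABA-B-R3 in 5 of 6, and mGluR above Nmdar2 in 3 of 6. Grd, a subunit that forms channels with Lcch3 when both are expressed in frog oocytes, stood apart at 0.226 ± 0.0621 FPKM. That is 21.0- to 56.9-fold below GABA-B-R3 in the same pool, and at the 23.3rd percentile of all genes with a mean above 0, where the other 9 receptors lay at the 53.5th to the 85.5th.

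**Figure D1:**
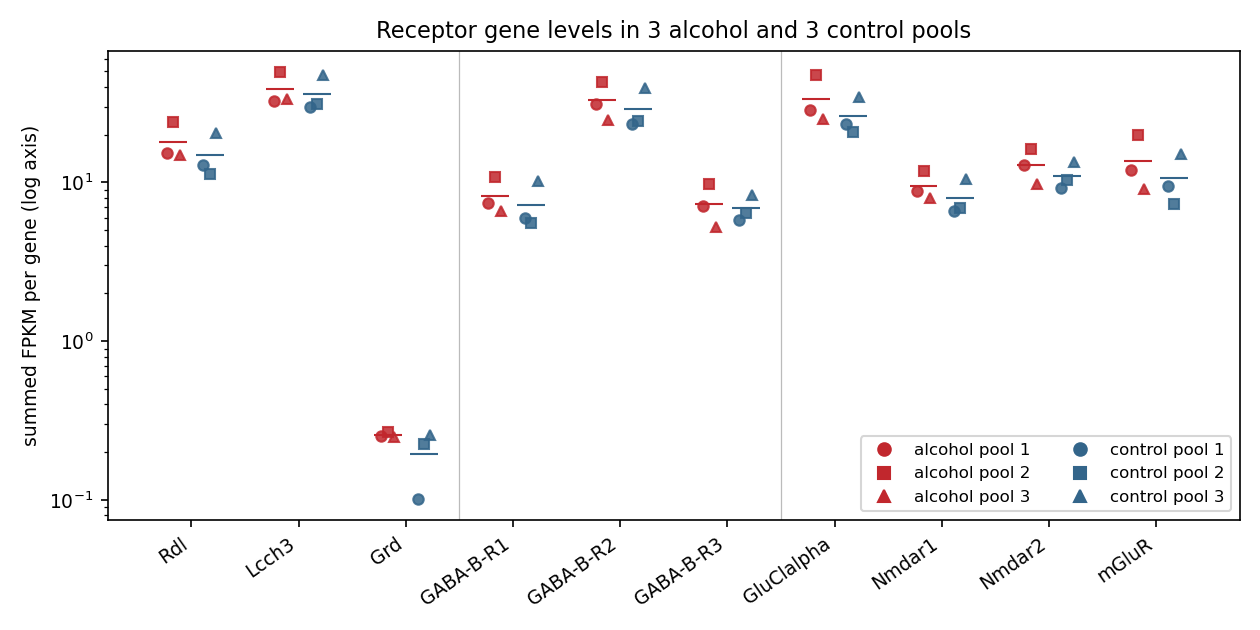
Summed FPKM of the 10 receptor genes on a log axis, with 3 alcohol pools in red left of 3 control pools in blue, one symbol per pool number and a bar at each group mean. Grd lies between 0.102 and 0.269 FPKM, the other genes lie between 5.23 and 49.5 FPKM, and the groups overlap for every gene.

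Differences between pools were shared by the whole set. Alcohol pool 2 was the highest and control pool 3 the second highest for 10 of the 10 genes. Among the 8247 genes tested, alcohol pool 2 was the highest for 18.3%, and these same pools were the top pair for 24.0%. The lowest pool was control pool 1 for 5 genes, control pool 2 for 4 and alcohol pool 3 for 1. Summed neuron markers had the same top pair, at 438 FPKM in alcohol pool 2 and 406 FPKM in control pool 3. The largest value of a receptor exceeded its smallest 1.67- to 2.71-fold over the 6 pools, whereas the ratio of the group means, alcohol over control, was 1.07 to 1.32. Within the control group alone the highest pool exceeded the lowest 1.44- to 2.51-fold, more than the ratio of the group means for 10 of the 10 genes.

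**Figure D2:**
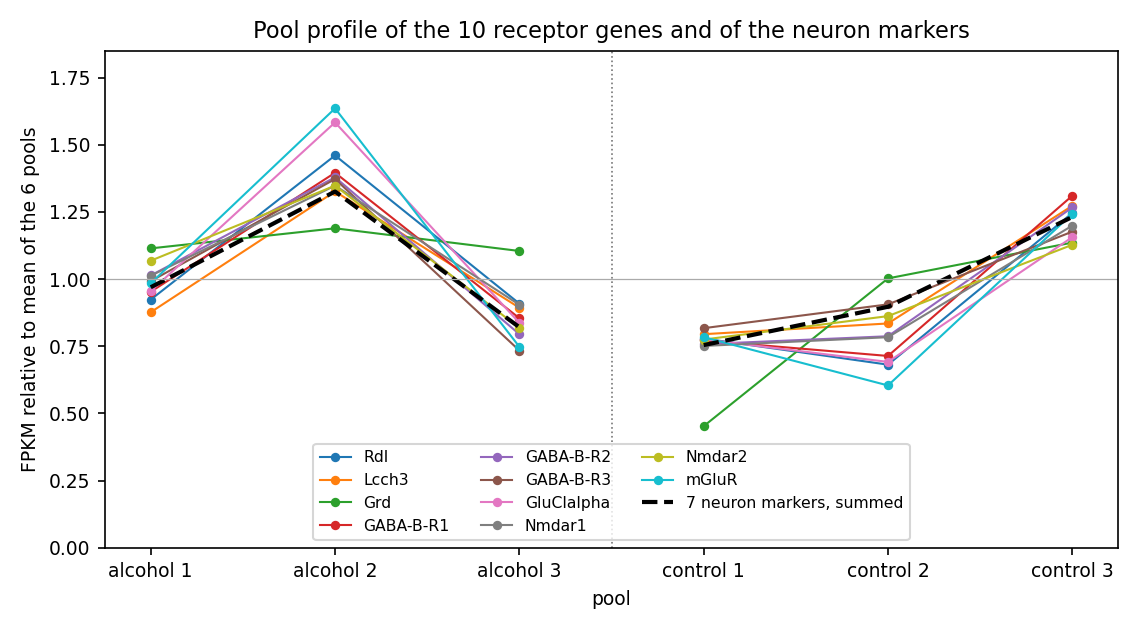
FPKM of each receptor gene (coloured lines) and of the 7 summed neuron markers (black dashes), each divided by its own mean over the 6 pools, with alcohol pools left and control pools right of the dotted line. Alcohol pool 2 and control pool 3 are the highest pools of every line, and lines join pools of a group only to guide the eye.

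Rdl (chromosome 3L, 9145838 to 9182149, minus strand, dm6 assembly), the subunit behind most fast GABA inhibition, had 15.2, 24.1 and 15.0 FPKM in alcohol pools 1, 2 and 3, against 12.8, 11.2 and 20.5 FPKM in control pools 1, 2 and 3. Control pool 3 exceeded alcohol pools 1 and 3, so the groups overlapped. Lcch3 (X, 15925105 to 15928529, plus strand), a beta-type subunit, had 32.7, 49.5 and 33.4 FPKM in the alcohol pools and 29.7, 31.2 and 47.5 FPKM in the control pools. Grd (3L, 17823333 to 17839767, plus strand) had 0.252, 0.269 and 0.250 FPKM in the alcohol pools and 0.102, 0.227 and 0.257 FPKM in the control pools. Its low value in control pool 1 made the control group the more variable, and its variance was too small for the filter used in the tests, so Grd entered only the alternative with no filter, where its log2 fold change was -0.011 (95% interval -0.21 to 0.19, limma adjusted p = 1.0). The exact permutation test of its log2(FPKM + 1) values gave p = 0.3, where 3 pools against 3 cannot give less than 0.1.

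Of the GABA-B receptors, which in mammals work as a pair of a ligand-binding and a G protein-coupling subunit, GABA-B-R1 (2L, 15016331 to 15034704, plus strand) had 7.38, 10.8 and 6.61 FPKM in the alcohol pools and 5.97, 5.53 and 10.1 FPKM in the control pools. GABA-B-R2 (3R, 21770333 to 21775840, minus strand) had 31.4, 42.7 and 24.6 FPKM in the alcohol pools and 23.5, 24.4 and 39.2 FPKM in the control pools. The first is the homologue of the ligand-binding subunit and the other of its coupling partner, and GABA-B-R2 exceeded GABA-B-R1 in every pool. GABA-B-R3 (2L, 749945 to 762399, plus strand), a subtype found in insects, had 7.07, 9.77 and 5.23 FPKM in the alcohol pools and 5.82, 6.45 and 8.38 FPKM in the control pools. It was the only receptor with its lowest value in an alcohol pool.

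GluClalpha (3R, 19730715 to 19775231, plus strand) had 28.6, 47.3 and 25.0 FPKM in the alcohol pools and 23.2, 20.7 and 34.6 FPKM in the control pools. mGluR (chromosome 4, 936819 to 949441, plus strand) had 11.9, 19.8 and 9.07 FPKM in the alcohol pools and 9.51, 7.33 and 15.1 FPKM in the control pools. These genes had the widest range of the glutamate receptors, since in alcohol pool 2 mGluR reached 2.71 times its lowest pool and GluClalpha 2.29 times. The obligatory NMDA subunit Nmdar1 (3R, 5508842 to 5523328, minus strand) had 8.88, 11.8 and 7.93 FPKM in the alcohol pools and 6.59, 6.88 and 10.5 FPKM in the control pools. Nmdar2 (X, 1483625 to 1507809, minus strand), the partner that completes the channel, had 12.8, 16.2 and 9.81 FPKM in the alcohol pools and 9.29, 10.3 and 13.5 FPKM in the control pools. Both NMDA subunits had narrower ranges, with a highest pool 1.79 and 1.74 times the lowest.

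Alcohol rearing did not give a detectable change of any receptor as a gene sum. The moderated test of limma was applied to log2(FPKM + 1), with a covariate for library size as in Ballgown, which sums log2(FPKM + 1) over those transcripts of a pool that lie under its 75th percentile. Features with a variance above 1 entered, and a call needed an unadjusted p under 0.05 and a change over 2-fold. Group means lay farthest apart for GluClalpha among the 3 highest genes, at 33.6 ± 12.0 FPKM in the alcohol pools and 26.2 ± 7.40 FPKM in the control pools (SD, n = 3 each). Lcch3 averaged 38.5 ± 9.51 FPKM in the alcohol pools and 36.1 ± 9.90 FPKM in the control pools. None of the 9 receptor genes tested was called, where 1.22% of all 8247 genes were, 1.18% (97 genes) higher and 0.0485% (4 genes) lower in the alcohol pools. None of the 9 had an unadjusted p under 0.05, and each had an adjusted p of 0.997 in limma. No receptor had groups that did not overlap, which held for 6.21% of the genes tested. With each pool rescaled to a common total the split of all calls turned to 73 higher and 201 lower, and without the covariate it was 45 and 35, while the count of receptor genes called remained 0.

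The estimates lay close to 0 and their intervals were wide. The median of the 9 receptors was 0.03 on the log2 scale, against -0.00046 over all genes tested. Glutamate receptors were on the positive side, with mGluR at 0.18 (95% interval -1.08 to 1.44) and GluClalpha at 0.16 (-0.89 to 1.21), and Nmdar2 and Nmdar1 at 0.06 and 0.03. GABA-B receptors were slightly negative at -0.03 to -0.06, Rdl was at 0.05 (-0.90 to 1.01) and Lcch3 at -0.17 (-0.95 to 0.60). Intervals of 6 of the 9 genes lay within a 2-fold change in either direction, and those of Rdl, GluClalpha and mGluR reached beyond it. That count depended on the fit. It was 7 without the covariate and 0 to 6 under the other alternatives run. It was 0 with the ordinary F-test, with each pool rescaled to a common total, and with a replicate block beside the covariate. It was also 0 without alcohol pool 1, control pool 2 or control pool 3.

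Directions depended on the covariate and on single pools, so none is given as a change. Without the covariate 9 of 9 estimates were positive, from 0.06 for GABA-B-R3 to 0.33 for GluClalpha, and the exact permutation test of the same differences gave p-values of 0.3 to 0.9 over the 10 genes. Treatment explained 40.3% of the variance of the covariate, so the effects of the covariate and of alcohol cannot be fully told apart. Leaving out alcohol pool 2 put 9 of 9 estimates below 0 (-0.34 to -0.08), and so did leaving out control pool 2 (-0.34 to -0.02). Without control pool 3, 9 of 9 were above 0 (0.20 to 0.94, beside a median over all genes of 0.11).

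**Figure D3:**
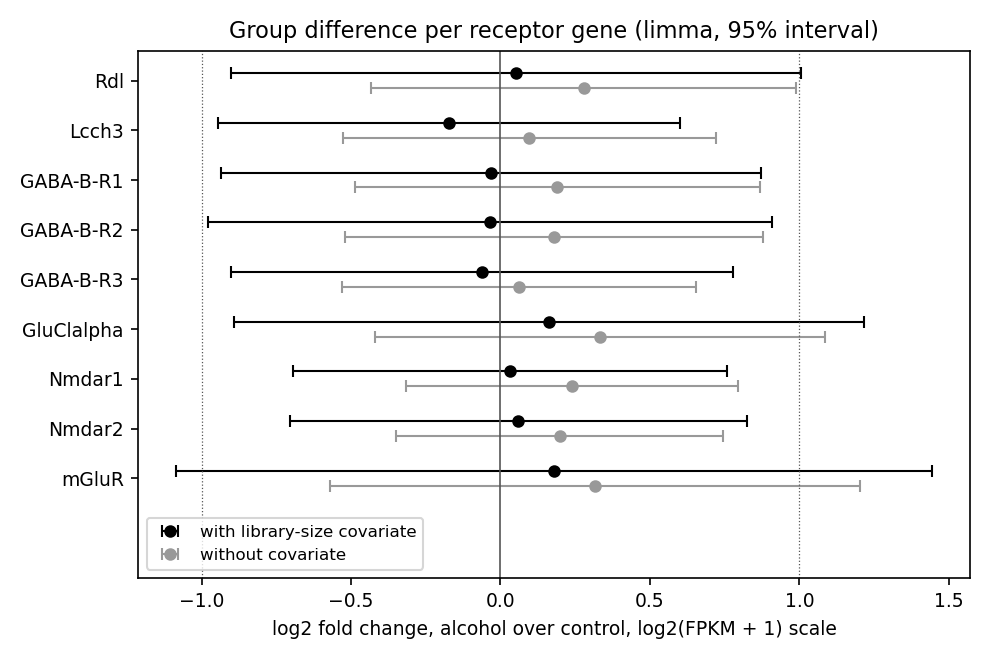
Log2 fold change, alcohol over control, of the 9 receptor genes tested, with the library-size covariate in black and without it in grey, bars showing the 95% interval from limma and dotted lines a 2-fold change. All 18 intervals include 0.

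Relative to the neuron markers the receptors were more even over the pools, and Grd was only slightly so. Each gene was divided by the summed FPKM of the 7 neuron markers in its pool, a scaling chosen after the pool values were seen. The coefficient of variation over the 6 pools was then 6.29 to 18.7%, against 22.1 to 38.2% for FPKM, for the 9 genes other than Grd. For Grd it was 25.6%, against 27.5% for FPKM, and its highest share was 2.24 times its lowest. Summed, the 9 genes came to 48.7, 53.0 and 50.4% of the neuron markers in the alcohol pools and 50.8, 41.9 and 49.1% in the control pools. Control pool 2 was the low one on this scale, with the smallest share for 6 of the 9 genes. GABA-B-R2, Nmdar2 and Lcch3 were the most even, with a highest share 1.19, 1.20 and 1.20 times the lowest, and mGluR was the least even of the 9 at 1.83 times.

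On this scale Nmdar1 was the only one of the 9 receptors whose groups did not overlap, where 2.92% of all tested genes did not. It had 2.78, 2.70 and 2.93% of the neuron marker sum in the alcohol pools, against 2.65, 2.32 and 2.59% in the control pools, a mean difference of 0.16 on the log2 scale. An exact two-sided permutation test gave p = 0.1, the smallest it can give, for 1 of 9 genes examined. The remaining genes had p-values of 0.3 to 1.0 on the percent scale, with mean differences on the log2 scale from -0.05 for GABA-B-R3 to 0.23 for mGluR.

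**Figure D4:**
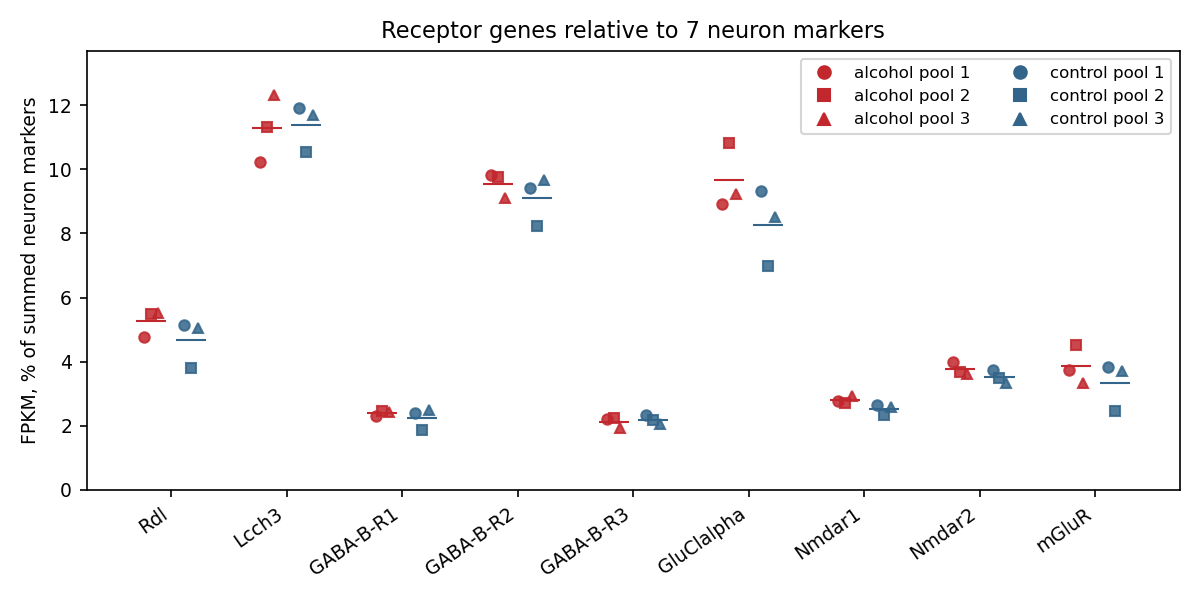
FPKM of 9 receptor genes as a percent of the summed FPKM of 7 neuron markers in the same pool, with alcohol pools in red left of control pools in blue and bars at the group means. Groups overlap for every gene but Nmdar1, and control pool 2 (blue square) lies lowest for 6 genes.

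Partner subunits kept similar proportions across pools, and so did some genes that are not partners. Over the 6 pools GluClalpha was 1.67 to 1.97 times Rdl, and Nmdar1 was 1.04 to 1.24 times GABA-B-R1. The ratio of mGluR to Nmdar2 ranged more widely, from 0.709 to 1.23. GABA-B-R1 stood at 0.235, 0.253 and 0.269 of GABA-B-R2 in the alcohol pools and 0.254, 0.227 and 0.258 in the control pools. On the log2(FPKM + 1) scale the groups differed by 0.01, with p = 0.9 in an exact two-sided permutation test. Nmdar1 stood at 0.693, 0.732 and 0.809 of Nmdar2 in the alcohol pools and 0.709, 0.665 and 0.778 in the control pools, a log2 difference of 0.04 (exact permutation p = 0.6). Rdl stood at 0.465, 0.486 and 0.449 of Lcch3 in the alcohol pools, against 0.432, 0.360 and 0.432 in the control pools. Its groups did not overlap (exact permutation p = 0.1, the smallest possible). Set against Lcch3, this held for Rdl and Nmdar1 among the receptors and for 2.13% of all tested genes. Over the 36 ratios among the 9 genes it held for 3, the other being GABA-B-R3 to Nmdar2, and no share over all pairs of genes was computed. On leaving out single pools the log2 differences of both partner ratios lay between -0.05 and 0.09. The ratio of Rdl to Lcch3 was singled out after its values were seen.

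Of the 7 receptor genes with several isoforms, 5 were carried mainly by the isoforms with the longest last exon. By position, exon number and length, 36 of the 43 transcripts matched a single isoform of the Ensembl annotation. The other 7 shared these features with another transcript and are given by the RefSeq identifier of the file. mGluR-RB, whose last exon of 3217 bases (946225 to 949441) is mostly 3′ untranslated, made up 96.6, 95.8 and 95.4% of mGluR in the alcohol pools and 95.6, 93.9 and 95.1% in the control pools. Nmdar2-RG, with a last exon of 2967 bases, made up 92.7, 94.0 and 95.5% of Nmdar2 in the alcohol pools and 95.5, 92.8 and 95.1% in the control pools. Both shares moved by less than 3 percentage points over all pools, and the groups overlapped for both (exact permutation p = 0.2 for mGluR-RB and 0.7 for Nmdar2-RG). GABA-B-R1-RC, which differs from GABA-B-R1-RB only by 720 further bases of 3′ untranslated sequence, made up 83.5 to 100% of its gene, with GABA-B-R1-RB listed at 0 in alcohol pool 1 and control pool 1.

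Rdl and GluClalpha were likewise carried by long 3′ ends, yet the isoforms behind them swung between pools. The 4 Rdl isoforms that end in an exon of 5275 bases (3L, 9145838 to 9151112) held 98.8, 99.5 and 97.6% of Rdl in the alcohol pools and 90.5, 98.9 and 97.0% in the control pools. Among them are 3 transcripts of equal length, which differ only in the choice within 2 pairs of coding exons of 138 and 68 bases each, and which could not be told apart by position. NM_001274687 had 4.30, 16.7 and 14.6 FPKM in the alcohol pools and 0, 9.33 and 12.4 FPKM in the control pools. NM_168321 had 3.70, 2.72 and 0.0447 FPKM in the alcohol pools and 10.4, 0.513 and 4.17 FPKM in the control pools. NM_001274687 held 97.3% of the gene in alcohol pool 3 and NM_168321 held 80.7% in control pool 1, at gene sums of 15.0 and 12.8 FPKM. NM_001274687, the most abundant Rdl transcript by mean, had a log2 fold change of -0.94 with the covariate and 1.13 without it (adjusted p = 0.999 and 0.997 in limma), so its sign depended on the covariate.

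GluClalpha isoforms differ in coding sequence as well as at the 3′ end. Of its 11 annotated isoforms, 4 end in an exon of 3754 bases (3R, 19767526 to 19771279), and these held 88.0, 87.5 and 89.3% of the gene in the alcohol pools and 87.1, 88.3 and 86.5% in the control pools. Isoforms with the distal last exon of 632 bases (19774600 to 19775231) held 10.0 to 11.3% in the alcohol pools and 10.4 to 12.5% in the control pools. The share of the longer end varied by 2.86 percentage points over all 6 pools. By contrast, isoforms with the 71-base form of an alternative coding exon (19757815 to 19757885) held 0.178, 35.1 and 19.8% in the alcohol pools and 51.8, 32.7 and 0.280% in the control pools. The transcript NM_169873 was the most abundant of the gene by mean, at 13.6, 14.1 and 10.2 FPKM in the alcohol pools and 8.96, 9.07 and 14.4 FPKM in the control pools. GluClalpha-RJ had 0.0509, 15.7 and 4.76 FPKM in the alcohol pools and 11.1, 6.72 and 0.0969 FPKM in the control pools. NM_142570 had 11.4, 11.6 and 7.35 FPKM in the alcohol pools and 0.0606, 0.104 and 14.0 FPKM in the control pools. In alcohol pool 1 and in all 3 control pools one of these was high and the other near 0, and in alcohol pools 2 and 3 both were present. Isoforms other than the most abundant one of each gene were named after their values were seen.

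**Figure D5:**
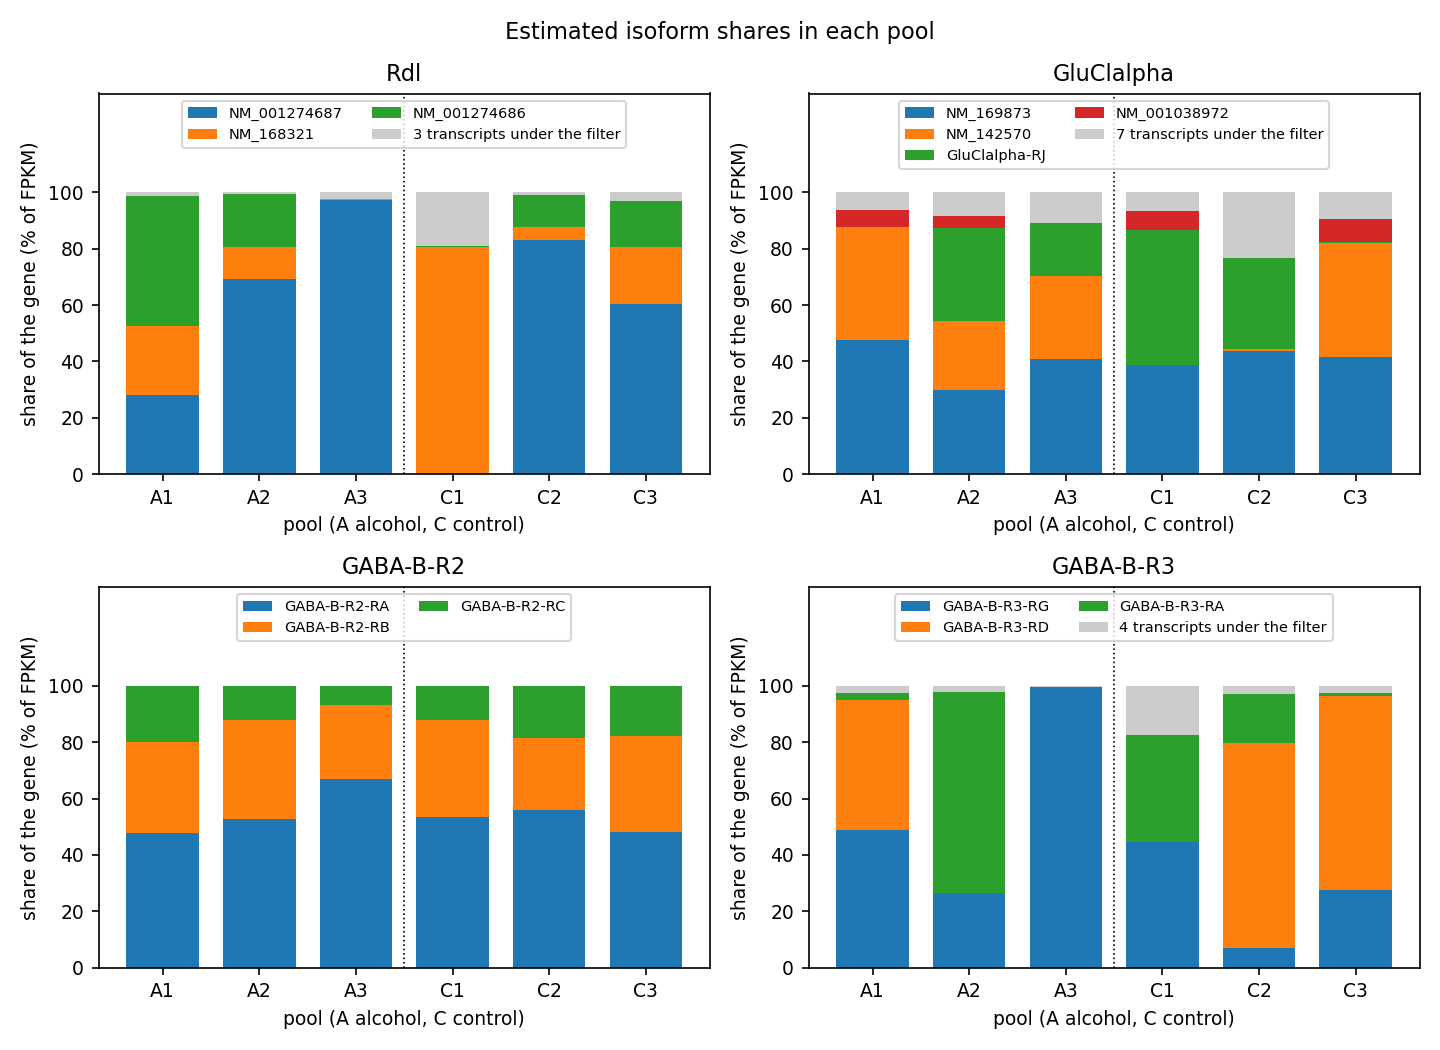
Share of each isoform in the summed FPKM of Rdl, GluClalpha, GABA-B-R2 and GABA-B-R3, stacked to 100%, for alcohol pools A1 to A3 left and control pools C1 to C3 right of the dotted line. Transcripts under the variance filter are pooled in grey. GABA-B-R2 keeps the order of its isoforms, whereas the leading isoform of Rdl, of GluClalpha and of GABA-B-R3 changes between pools of the same group.

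The isoforms of GABA-B-R2 kept their order in every pool, and those of GABA-B-R3 did not. Those of GABA-B-R2 differ by 3 or 12 coding bases, and GABA-B-R2-RA held 47.9, 52.6 and 67.0% of the gene in the alcohol pools and 53.3, 55.9 and 48.2% in the control pools. GABA-B-R3-RG, the most abundant GABA-B-R3 transcript by mean, has 257 bases of 3′ untranslated sequence of its own. It had 3.46, 2.59 and 5.20 FPKM in the alcohol pools and 2.61, 0.457 and 2.32 FPKM in the control pools. Its log2 fold change was 0.95 (95% interval -0.62 to 2.51, limma adjusted p = 0.999) and 0.38 to 1.77 on leaving out single pools. Among the most abundant tested transcripts of each gene it was the only one that kept its sign under every alternative run, and it was called under none. GABA-B-R3-RD, which codes for the same protein length, was listed at 0 in alcohol pools 2 and 3 and in control pool 1, and had 3.24 FPKM in alcohol pool 1 and 4.69 and 5.75 FPKM in control pools 2 and 3. GABA-B-R3-RA reached 6.95 FPKM in alcohol pool 2, was next highest in control pools 1 and 2, and stayed at or under 0.185 FPKM in alcohol pools 1 and 3 and control pool 3.

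The size of these swings was set beside the number of exonic bases that an isoform shares with no other, as a description. That number leaves out exons shared with some isoforms only, such as the 71-base exon of GluClalpha-RJ, which also help to tell isoforms apart. Of the 16 transcripts past the filter in genes with several transcripts, 4 had at least 100 exonic bases found in no other isoform, and their share of the gene varied over the pools by 2.67 to 92.4 percentage points (median 9.68). The other 12 varied by 8.05 to 97.3 percentage points (median 43.2), and 5 of these were listed at 0 in some pool. The ranges of both groups overlapped widely. GABA-B-R3-RG, with 257 bases of its own, had the second largest swing of the 16, and GABA-B-R2-RB, with 3, varied by 9.48 percentage points. The FPKM of an isoform is an estimate that divides shared reads, and how far the swings come from that division was not tested.

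No isoform change was called at the level of transcripts either. Of the 43 receptor transcripts 18 passed the variance filter, 25 had a mean under 1 FPKM and 3 were at 0 in every pool. None of the 18 was called, where 3.85% of the 14645 transcripts tested were, and none had groups that did not overlap, where 7.72% had. None had an unadjusted p under 0.05, and the adjusted p was 0.999 for each in limma. Leaving out single pools added calls, so this count depended on them and on the filter. GluClalpha-RO was under the filter with all 6 pools (variance 0.973) and was high only in control pools 2 and 3 (2.36 and 1.39 FPKM). It was tested below only where its variance without a pool exceeded 1. Without alcohol pool 1, 3 of 19 receptor transcripts were called (GABA-B-R3-RD, GluClalpha-RJ and GluClalpha-RO), where 4.19% of all transcripts were. Without control pool 3, 3 of 18 were called (NM_168321, NM_142570 and GluClalpha-RO), where 5.69% of all were. GluClalpha-RO was the only 1 of 19 called without alcohol pool 2 (5.05% of all), alcohol pool 3 (4.72%) or control pool 1 (4.53%), and 0 of 18 were called without control pool 2 (4.29%). Differential transcript usage, by the F-test per gene that diffSplice in limma gives, was called at an adjusted p under 0.05. It was found for 0 of the 4 testable receptor genes (Rdl, GluClalpha, GABA-B-R2 and GABA-B-R3, adjusted p 0.723 to 1.0) and for 1.05% of 3630 genes. Of the same 4, 0 had an unadjusted p under 0.05 in this test, where 416 of the 3630 genes had. Shares of annotated exons could be computed for 63 of the 69 alternative exons of the 7 genes with several isoforms. These formed 49 different sets of isoforms, 3 of which had groups that did not overlap, all of them in GluClalpha and all singled out after the values were seen. Of 19981 such sets in 4588 genes with several isoforms, 9.0% had groups that did not overlap, so the count for the receptors was not above the background.

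Of these sets, the coding exon of 165 bases (3R, 19764249 to 19764413) was carried by 9.78, 9.62 and 1.12% of GluClalpha in the alcohol pools and 11.0, 11.6 and 15.6% in the control pools, and its longer form of 180 bases by 88.9, 89.1 and 98.2% and by 87.7, 87.0 and 83.4%, in the same order. The third set, GluClalpha-RO and GluClalpha-RP, carries a coding exon of 119 bases (19765633 to 19765751). It held 0.300, 0.429 and 0.332% in the alcohol pools and 0.434, 11.4 and 4.03% in the control pools. GluClalpha-RO also belongs to the set with the 165-base exon, and the 165- and 180-base forms are alternatives of one exon, so the 3 sets are not separate observations. GluClalpha-RO had 0.0856, 0.0296 and 0.0405 FPKM in the alcohol pools and 0.101, 2.36 and 1.39 FPKM in the control pools. Control pools 2 and 3 were well above every alcohol pool, and control pool 1 was close to alcohol pool 1. The variance of GluClalpha-RO was 0.973, just under the filter. Without the filter it was called lower in the alcohol pools at a log2 fold change of -1.55 (limma adjusted p = 0.932), the only 1 of 40 receptor transcripts called in that fit, where 1.68% of all transcripts were, so the count of receptor transcripts lay near the background. Each exact permutation test of these 3 shares gave p = 0.1, the smallest possible.

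Genes that make, move and recycle the transmitters, and the other receptors of these families, were examined as lists. Of 40 such genes 23 passed the filter and 0 were called in either direction (1.22% of the genes tested were). Over all 40, with those under the filter included, 0 had groups that did not overlap, where 6.21% of the genes past the filter did not. None of the 23 had an unadjusted p under 0.05 in limma. All 6 genes of GABA synthesis, transport and breakdown were tested, with 4 positive and a median log2 fold change of 0.08. The 7 genes of glutamate supply had 2 positive and a median of -0.06. Of 13 AMPA- and kainate-type glutamate receptor genes 3 were tested (median -0.17), of 8 further chloride channel genes of the same family 2 (median 0.47), and of 6 scaffold genes 5 (median -0.04). Gad1, the enzyme that makes GABA, had 28.7, 41.0 and 37.0 FPKM in the alcohol pools and 18.3, 20.3 and 32.8 FPKM in the control pools, with a log2 fold change of 0.20 (adjusted p = 0.997, limma) and 0.59 without the covariate. GluRIIA, GluRIIB, GluRIIC, GluRIID and GluRIIE, the glutamate receptor subunits of larval muscle, lay under 1 FPKM in every pool. Other AMPA- and kainate-type genes were high, with CG11155 at 69.6 to 131 FPKM and KaiR1D at 22.6 to 42.0 FPKM over the 6 pools. These genes were singled out after their values were seen. The top pair of pools was alcohol pool 2 and control pool 3 for 15 of the 40, past the filter or not, against 24.0% of all genes tested and 10 of the 10 receptors described here.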

How the data were processed

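Per the labels and the study's methods, libraries of poly-A RNA from 6 pools were trimmed, aligned to dm6 with HISAT2 2.2.0 and quantified with StringTie 2.1.4. The authors deposited FPKM per transcript and pool, with no further normalization, and the coverage (signal) of each transcript as StringTie gives it. A deposited table with the authors' own fold changes, p-values and q-values was not used. Read counts were not analysed here, so precision rests on the spread between pools. The 2719 to 4244 aligned megabases per pool came from the constant ratio of coverage to FPKM.

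FPKM was summed per gene name and tested as log2(FPKM + 1) in R 4.3.3 with limma 3.58.1, in a model with Ballgown's library-size covariate, after a filter on variance above 1, with Benjamini-Hochberg adjustment over all tested features. Single values were compared with an exact two-sided permutation test over 20 assignments. The tests were tried on simulated data. Tables and figures used Python 3.11.15, pandas 2.3.3 and matplotlib 3.10.9. Isoform and exon positions came from the Ensembl annotation of the same assembly, matched by chromosome, strand, ends, exon number and length.

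Transcripts named are those called, the most abundant one of each gene and those whose groups did not overlap, and exceptions are stated where they stand. The members and lists were chosen with earlier results of these data known. Alternatives were no covariate, a replicate block with and without it, a pseudocount of 0.1, no filter, rescaling each pool to 1000000, quantile normalization, the ordinary F-test and leaving out each pool.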

Additional observations from a re-analysis of the deposited data

How the results depend on the processing

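The count of receptor genes called and the count with differential transcript usage (adjusted p under 0.05) were 0 under each alternative run. For GABA-B-R3 the unadjusted p of the diffSplice F-test was 0.0103 with the replicate block and the covariate (adjusted 0.314). Without alcohol pool 1 it was 0.0155 (adjusted 0.302), and in the fit reported it was 0.216. The count of receptor transcripts called was 0 in the fit reported, 1 with no variance filter (GluClalpha-RO), and 0 to 3 on leaving out single pools. GluClalpha-RO, under the filter in the fit reported, was among the calls in each of these last fits that had any. The labels give the pools of both groups the same numbers, but same-numbered pools did not deviate together (r = -0.0096, -0.183 and -0.239), so the numbers were not taken as pairs. With the replicate block and the covariate, a fit with 1 residual degree of freedom, 2 of 18 transcripts were called (GABA-B-R3-RD and GluClalpha-RJ, where 4.6% of all transcripts were), and the log2 fold change was -0.20 for Nmdar1, -0.38 for Nmdar2, -0.047 for mGluR, -0.19 for GABA-B-R1-RC, 0.081 for GABA-B-R2-RA, -0.52 for NM_169873, -0.33 for Nmdar2-RG and -0.036 for mGluR-RB, each of opposite sign to the fit reported. Signs also turned without the covariate, with the same values in the replicate block without it, to 0.10 for Lcch3, 0.19 for GABA-B-R1, 0.18 for GABA-B-R2, 0.061 for GABA-B-R3, 0.25 for GABA-B-R2-RA and 1.13 for NM_001274687. For these 6, in the same order, a common total of 1000000 in each pool gave 0.44, 0.62, 0.64, 0.51, 0.52 and 1.01. Quantile normalization, which was run only without the covariate, gave 0.12, 0.31, 0.21, 0.13, 0.27 and 1.15. Relative to the neuron markers, an alternative chosen after seeing the data, GABA-B-R1 was at 0.10 and GABA-B-R2 at 0.072. The block left the ratio of GABA-B-R1 to GABA-B-R2 at 0.01 and that of Nmdar1 to Nmdar2 at 0.04. The cause of these reversals was not tested.

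On leaving out single pools the log2 fold change ranged from -0.22 to 0.61 for Rdl, -0.34 to 0.20 for Lcch3, -0.27 to 0.53 for GABA-B-R1, -0.22 to 0.49 for GABA-B-R2, -0.24 to 0.24 for GABA-B-R3, -0.077 to 0.69 for GluClalpha, -0.12 to 0.43 for Nmdar1, -0.086 to 0.38 for Nmdar2 and -0.15 to 0.94 for mGluR. Among transcripts it ranged from -0.11 to 0.57 for GABA-B-R1-RC, -0.15 to 0.23 for GABA-B-R2-RA, -0.12 to 0.59 for NM_169873, -0.093 to 0.38 for Nmdar2-RG, -1.48 to -0.61 for NM_001274687 and -0.13 to 0.97 for mGluR-RB. The log2 difference ranged from -0.046 to 0.055 for the ratio of GABA-B-R1 to GABA-B-R2 and from -0.018 to 0.090 for that of Nmdar1 to Nmdar2. With 3 pools a group, exact tests cannot give less than p = 0.1, and a call needed a change over 2-fold by its own rule.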
